A study of Mus musculus with 18 samples.

Results

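The genes described here are 34 mouse genes of the endoplasmic reticulum (ER) stress response and of the response driven by the transcription factor ATF4. They were chosen by name, as members of these pathways, and every one of the 34 was found among the 50689 features of the count table. They were placed in 3 groups by known role: 4 sensor genes (the 3 stress sensors and Xbp1, which one of them splices), 19 genes of the ATF6 and XBP1 chaperone arm, and 11 genes of the ATF4 arm. RNA came from muscle satellite cells, which regenerate adult muscle, taken from the tibialis anterior of C57BL6 mice and grown in growth medium on a matrigel coating. The 9 control libraries had the genotype Hoxa10f/f, in which both copies of the limb patterning gene Hoxa10 carry Cre target sites. The 9 libraries labelled scKO had the genotype Pax7-CreERT2/+;Hoxa10f/f, so that a tamoxifen-dependent Cre was expressed from Pax7, a gene active in satellite cells, and these cells were given 4-hydroxytamoxifen at 1 µM for 2 days. The loxP-flanked Hoxa10 alleles are shared by both groups. The labels give no 4-hydroxytamoxifen for the controls, so Cre, drug and loss of Hoxa10 cannot be told apart. Ages are not given, nor whether each library had its own animal or culture, and p-values therefore measure the spread between these libraries, which may be technical. Because each library is bulk RNA, a change in the share of cells that use a gene and a change of RNA per cell cannot be told apart.

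Proteins that enter the ER fold there with the help of chaperones. When unfolded proteins build up, the membrane proteins ATF6, IRE1 (encoded by Ern1) and PERK (encoded by Eif2ak3) signal to the nucleus. ATF6 is cut to release a transcription factor, and IRE1 splices the Xbp1 mRNA so that it encodes one. Together these raise transcription of chaperones, protein disulfide isomerases and genes that send misfolded proteins for degradation. PERK phosphorylates the initiation factor eIF2, which lowers protein synthesis in general while ATF4 protein is made, and ATF4 turns on genes of amino acid synthesis, redox balance and cell death. Other kinases that sense amino acid shortage, viral RNA or haem shortage reach ATF4 by the same route, so the ATF4 arm can move without ER stress. Much of the regulation of ATF6, IRE1, PERK and ATF4 happens by cleavage, splicing, phosphorylation or translation, which gene-level mRNA counts do not record.

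Known DNA elements are linked to the arms, and a few promoter stretches are shown so that the elements can be seen beside the genes whose values follow. Of the 34 genes, 30 were matched to a RefSeq promoter sequence (GRCm38.p6, 250 bases before to 50 bases after the gene start). Both strands were searched for the ER stress response element, ERSE, which is CCAAT, then any 9 bases, then CCACG. It was present in 8 of the 16 chaperone arm genes with a promoter sequence (Calr, Canx, Creld2, Dnajc3, Hsp90b1, Hspa5, Pdia6 and Syvn1). It was present in none of 11 ATF4 arm genes and none of 3 sensors, and in 37 of all 27025 genes with a promoter (0.137%). Both strands were also searched for the C/EBP-ATF element, which is TGATG, then any base, then AA, and is bound by ATF4 with a C/EBP partner. That element was present in 3 of 11 ATF4 arm genes (Asns, Chac1 and Trib3) and in 1 of 16 chaperone arm genes (Herpud1), beside 4.51% of all genes with a promoter. The other 8 chaperone arm genes lacked the ERSE and the other 8 ATF4 arm genes lacked the C/EBP-ATF element. An XBP1 element, GACGTGG or ACGTGGCA, was searched on both strands too, and both forms contain the CGTGG that reads CCACG on the other strand. GACGTGG was present in 1 of 16 chaperone arm genes (Pdia6), beside 2.73% of all genes, and ACGTGGCA in none of the 16, beside 0.681% of all genes. Capitals mark the 2 ends of the ERSE or the 8 bases of the C/EBP-ATF element, each with 12 flanking bases, written 5′ to 3′ on the gene's own strand. A match of letters is a description and not a measured binding site.
Hspa5, plus strand, chr2:34772013-34772055: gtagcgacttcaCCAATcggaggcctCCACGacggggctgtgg
Hsp90b1, minus strand, chr10:86705521-86705563: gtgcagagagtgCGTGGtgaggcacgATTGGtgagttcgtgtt
Calr, minus strand, chr8:84847063-84847105: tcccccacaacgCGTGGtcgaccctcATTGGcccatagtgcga
Pdia6, plus strand, chr12:17266479-17266521: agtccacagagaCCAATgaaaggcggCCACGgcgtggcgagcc
Canx, minus strand, chr11:50325788-50325830: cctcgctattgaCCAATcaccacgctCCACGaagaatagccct
Asns, minus strand, chr6:7693213-7693244: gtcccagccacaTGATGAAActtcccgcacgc
Chac1, plus strand, chr2:119351037-119351068: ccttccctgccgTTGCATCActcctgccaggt
Herpud1, plus strand, chr8:94386305-94386336: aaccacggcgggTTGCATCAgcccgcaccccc

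In Hspa5, Pdia6 and Canx the ERSE reads in the direction of the gene, and in Hsp90b1 and Calr the stretches shown read as its reverse complement. Hsp90b1 held a further ERSE, also upstream, in the forward direction. The Hspa5 element lay 65 to 47 bases before the start, the Asns element 23 to 16 bases before it and the Chac1 element 193 to 186 bases before it. The CCACG end of the ERSE alone, which also lies inside every full ERSE, was present in 15 of 16 chaperone arm genes, in 8 of 11 ATF4 arm genes and in 35.5% of all genes.

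Counts in the table are of unique molecular identifiers (UMIs), short random tags that let copies of one molecule be counted once. Totals fell into 2 classes on either side of 2000000 counts. The 5 deep libraries (control 1 and 2, scKO 6, 7 and 9) held 4346150 to 5986128 counts, and the 13 shallow libraries (control 3 to 9, scKO 1 to 5 and 8) held 420197 to 968559. Levels are given as CPM, counts scaled to a common library total after adjustment of each total by its TMM factor. On that scale 3 counts, taken as the floor of detection, equal 0.362 to 8.65 CPM in these libraries. The first 2 principal components held 51.8% and 14.4% of the variance, the first separating the depth classes. On the second, 4 shallow libraries, which are scKO 1 and control 7, 8 and 9, lay apart from the other 9, so 3 of the 4 are controls. Hoxa10 itself was 37.5 and 39.6 CPM in the deep controls against 10.3, 7.08 and 6.79 CPM in deep scKO 6, 7 and 9. It was 14.8 to 64.2 CPM in shallow controls and 1.87 to 4.77 CPM in shallow scKO, with no overlap between groups in either class. Satellite cell and myoblast markers summed to 2351 to 2876 CPM in deep libraries and to at least 6398 CPM in shallow ones. These sums are not compared between the classes, since counts have a ceiling, described below. Leukocyte markers summed to at most 7.95 CPM. Fibro-adipogenic markers summed to 31.5 to 121.5 CPM over all libraries and endothelial markers to 4.77 to 58.6 CPM. Smooth muscle and pericyte markers were 154.2 and 165.7 CPM in deep controls and 181.1 to 201.5 CPM in deep scKO, without overlap, and 43.9 to 149.7 CPM in shallow libraries of both groups. None of the 8 satellite cell and myoblast markers, and none of those of the other cell types, was at 0 in every library. The summed level of 4 Schwann cell markers ranged from 26.6 to 139 CPM (median 130.1) in shallow controls. In shallow scKO it ranged from 8.80 to 76.3 CPM (median 32.2), overlapping the controls. In the deep class it was 7.0 and 10.9 CPM in controls and 23.0 to 44.9 CPM in scKO. The part of these marker levels in the results was not tested.

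The highest count in the whole table was 4096, which is 4 to the power 6, the number of different tags of 6 bases. Several of the 34 genes lay close to that ceiling in deep libraries. Psat1, which makes serine from a glycolytic intermediate, reached 3890 counts, 94.97% of the ceiling. The main ER chaperone gene Hspa5 reached 3846 counts and the disulfide isomerase gene Pdia6 reached 3835. Canx, Calr, Manf, Atf4 and Shmt2 also passed 2048 counts in at least 1 library, and the other 26 genes did not. A ceiling of this kind compresses differences between libraries for the most abundant genes, so each depth class was compared separately and levels are not compared between classes or between genes. The split does not remove the compression within the deep class, where totals also differ. Deep CPM of genes near the ceiling, and the order of libraries in it, are therefore of compressed counts. The length of the tags is not stated in the sources used here.

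**Figure D1:**
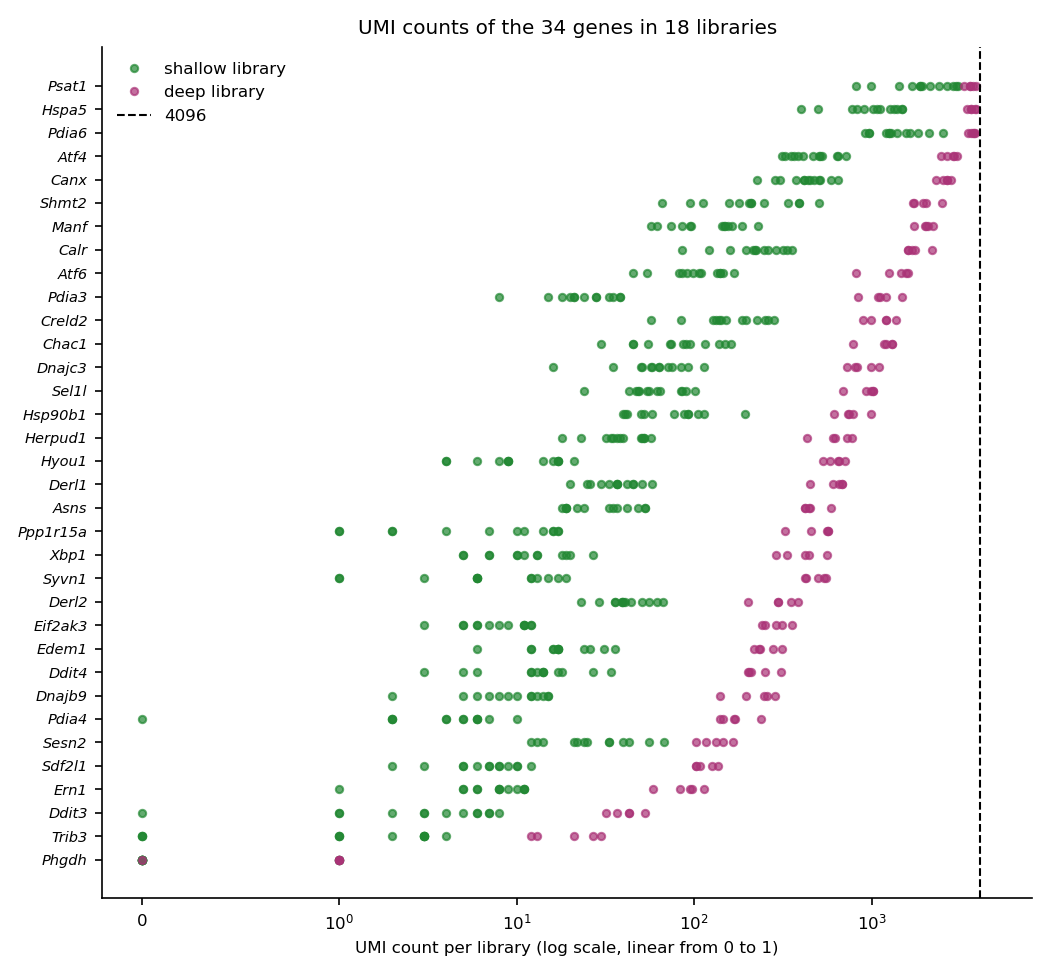
UMI counts of each of the 34 genes in each of the 18 libraries (log scale, linear from 0 to 1), ordered by highest count. The dashed line marks 4096 counts. Deep libraries of Psat1, Hspa5 and Pdia6 sit just under the line at up to 3890, 3846 and 3835 counts, while Phgdh never passed 1 count.

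Over all 18 libraries, none of the ER stress or ATF4 genes differed between scKO and control at an adjusted p under 0.05. Sufficient counts for the test were present for 28 of the 34. The comparison used the quasi-likelihood test of edgeR with depth class as covariate, adjusted by Benjamini-Hochberg over all genes, and it called 52 of 7662 genes (0.679%). One of the 28 had an unadjusted p under 0.05 (Atf6), beside 11.9% of all genes tested. DESeq2 called Atf6 alone among the 28, at a log2 fold change of 0.31, while it called 5.09% of all genes, and limma-voom called none of the 28 and 1.31% of all genes. When control 7, 8 and 9 and scKO 1 were left out, edgeR called 619 of 8464 genes (7.31%) and 1 of 31 of the ER stress and ATF4 genes, Shmt2, and 6 of the 31 had an unadjusted p under 0.05 (Atf6, Pdia4, Edem1, Manf, Ppp1r15a and Shmt2). That is 19.4%, beside 22.1% of all genes in that fit. In the shallow libraries alone edgeR called 3 of 6906 genes (0.0434%) and none of 26 of these genes, of which 1 had an unadjusted p under 0.05 (Ddit4; background 6.13%), and DESeq2 called none of the 26. No gene of the 26 had all scKO libraries on one side of all controls, a pattern found in 0.319% of genes there. In the deep libraries alone it called 1884 of 13136 genes (14.3%) and 4 of 33 of these genes. Atf6 and Ppp1r15a were higher in scKO, as were 7.31% of all genes, and Pdia4 and Shmt2 were lower, as were 7.03% of all genes. DESeq2 called 3 of the 33, all but Pdia4, and 9.87% of all genes in that class. A share of 4 in 33 is near the 14.3% found among all genes.

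**Figure D2:**
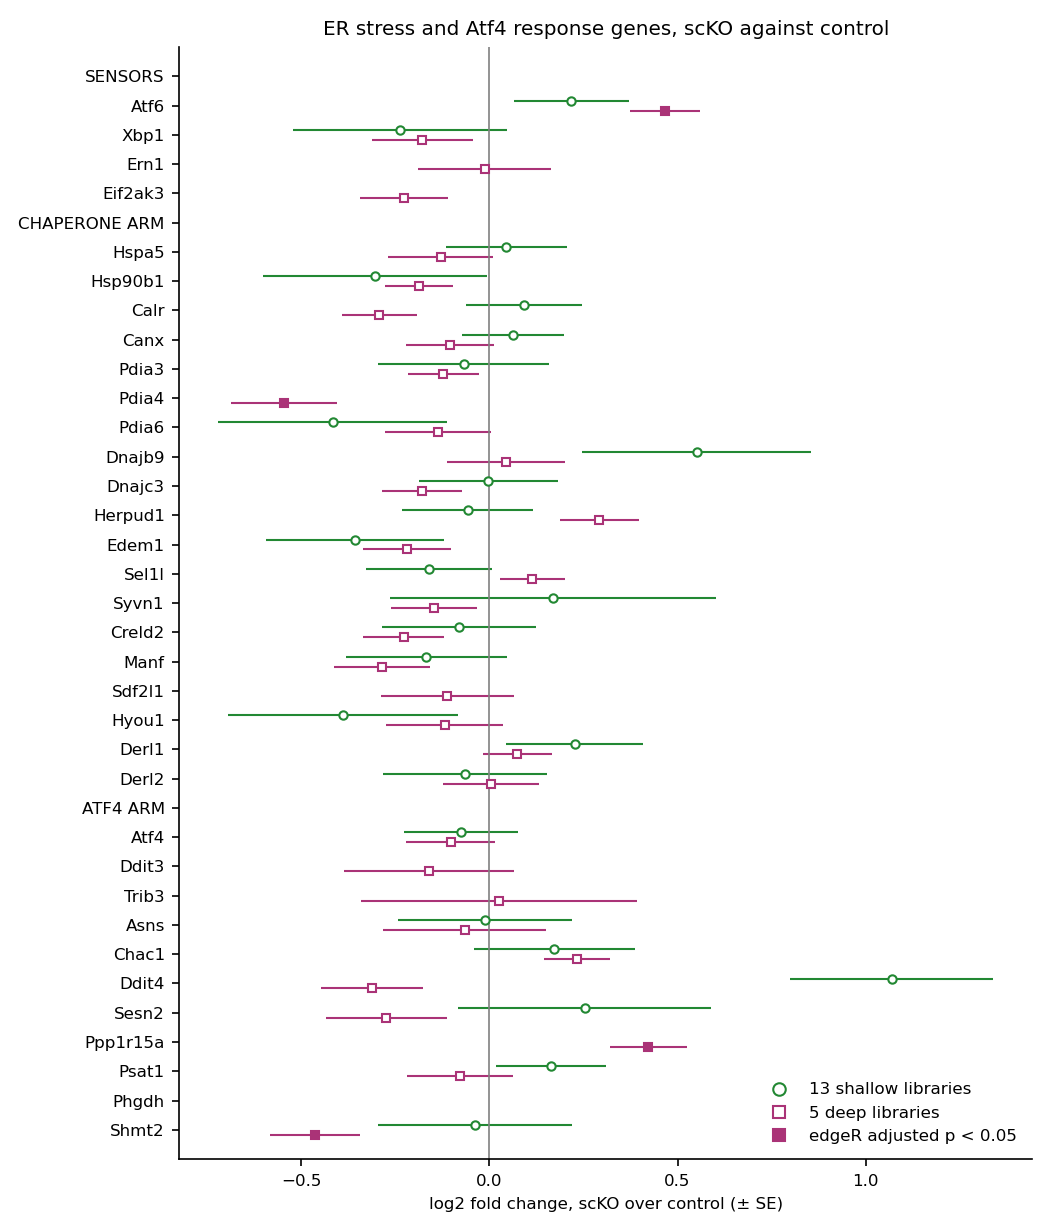
Log2 fold change of scKO over control with its standard error for each gene, in the 13 shallow libraries (circles) and in the 5 deep libraries (squares). Filled symbols passed an edgeR adjusted p of 0.05, and a missing symbol means too few counts for the test. The 4 filled symbols are all deep: Atf6 at 0.47, Ppp1r15a at 0.42, Pdia4 at -0.55 and Shmt2 at -0.46.

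Among the sensors, Atf6 was higher in scKO in the deep libraries, and Xbp1, Ern1 and Eif2ak3 did not pass the test in any comparison. Atf6 encodes the ER membrane protein that is cut to release a chaperone-inducing factor. Its level was 145.9 and 151 CPM in deep control 1 and 2 and 219.5, 196.2 and 206.4 CPM in deep scKO 6, 7 and 9, so every deep scKO library lay above both controls. The log2 fold change was 0.47 (SE 0.09, adjusted p by edgeR = 0.0051, n = 2 and 3), and it stayed between 0.43 and 0.51 and past the threshold when any 1 deep library was left out. In shallow controls Atf6 ranged from 125.1 to 185.5 CPM with a median of 148.1, and in shallow scKO from 138.2 to 220.9 CPM with a median of 189.1. These ranges overlap, and the shallow log2 fold change of 0.22 (SE 0.15) had an edgeR adjusted p of 0.824. The difference of the fold changes between classes was 0.26 on the log2 scale (SE 0.25, adjusted p by edgeR = 0.954). Both classes together gave 0.30 (SE 0.12, adjusted p by edgeR = 0.262).

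Xbp1 encodes the factor that IRE1 activates by splicing. It was 51.8 and 67.8 CPM in deep controls and 60.7, 53.2 and 47.4 CPM in deep scKO, with overlapping groups. The shallow ranges also overlapped, at 12.5 to 31.2 CPM (median 16.3) in controls and 9.36 to 31.7 CPM (median 16.3) in scKO. Over all 18 libraries the log2 fold change was -0.20 (SE 0.18, adjusted p by edgeR = 0.727). Gene-level counts do not tell spliced from unspliced Xbp1. Ern1, which encodes IRE1, was 10.6 and 13.8 CPM in deep controls and 12.99, 12.3 and 11.7 CPM in deep scKO. Its deep log2 fold change was -0.01 (SE 0.18), and its shallow levels, from 2.32 to 14.8 CPM (median 14.3) in controls and 6.69 to 17.7 CPM (median 11.6) in scKO, came from 11 counts or fewer per library and were not tested. Eif2ak3 encodes PERK, the kinase that links the ER to ATF4. It was 44.8 and 42.7 CPM in deep controls and 39.5, 39.7 and 33.9 CPM in deep scKO, lower in each of the 3, with a log2 fold change of -0.23 (SE 0.12, adjusted p by edgeR = 0.213). In shallow libraries it ranged from 8.65 to 15.4 CPM (median 11.6) in controls and from 8.92 to 19.4 CPM (median 12.8) in scKO, with overlap.

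The chaperone arm as a whole had small fold changes, more of them negative than positive. In the deep libraries 14 of 19 genes were lower in scKO by fold change, with a median of -0.13 on the log2 scale, beside a median of -0.00 and 50.2% lower over all genes tested. In the shallow libraries 11 of the 17 tested were lower, with a median of -0.07, beside a median of -0.02 and 54.1% lower over all genes. Only Pdia4 passed the test, in the deep libraries. Pdia4 encodes a protein disulfide isomerase, which forms and rearranges disulfide bonds. It was 30.5 and 28.6 CPM in deep controls and 23.0, 18.5 and 19.8 CPM in deep scKO, with every scKO library below both controls. The log2 fold change was -0.55 (SE 0.14, adjusted p by edgeR = 0.0197). Pdia4 lost the call with DESeq2 (log2 fold change -0.55) and when control 1 (-0.51), scKO 7 (-0.48) or scKO 9 (-0.53) was left out. In shallow libraries it had at most 10 counts, ranged from 0 to 16.3 CPM (median 5.12) in controls and from 3.18 to 13.1 CPM (median 8.51) in scKO, and was not tested. The shallow medians thus lie in the opposite order to the deep levels, and both are near the floor of those libraries.

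Hspa5 encodes BiP, the Hsp70 chaperone of the ER that also holds the sensors inactive, and it is the usual read-out of ER stress. It was 614.1 and 463.8 CPM in deep controls and 522.5, 458.8 and 510.6 CPM in deep scKO. In CPM the controls differed from each other more than the groups did. Their counts, 3426 in control 1 and 3846 in control 2, lay near the ceiling, which compresses CPM more in the larger library. How much of the gap comes from the ceiling was not tested. The log2 fold change was -0.13 (SE 0.14, adjusted p by edgeR = 0.587), and -0.10 with counts corrected for tag collisions near the ceiling. Shallow levels were 1153 to 2249 CPM (median 1549) in controls and 1308 to 2008 CPM (median 1617) in scKO, with a log2 fold change of 0.04 (SE 0.16, adjusted p by edgeR = 0.965). Without control 7, 8 and 9 and scKO 1 the shallow value was -0.15 (SE 0.14). Before correction for tag collisions, control 1 held the highest deep CPM of Hspa5, and without control 1 the deep value was 0.08. Without control 2 it was -0.32, against control 1 alone, the deep library with the smallest total. The part of the ceiling in these values was not tested.

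Calr and Canx encode the lectin chaperones calreticulin and calnexin, which hold newly made glycoproteins. Calr was 285.9 and 262.8 CPM in deep controls and 238.4, 214.2 and 225.9 CPM in deep scKO, lower in each of the 3 scKO libraries. The deep log2 fold change was -0.29 (SE 0.10, adjusted p by edgeR = 0.0651). With counts corrected for tag collisions, which undo part of the compression near the ceiling, it was -0.37 and passed the test, in a comparison that called 16% of all genes. It also passed without control 2 (-0.36). In shallow libraries Calr ranged from 245 to 410 CPM (median 387.5) in controls and from 329.7 to 457.7 CPM (median 363.3) in scKO, and its log2 fold change of 0.09 became -0.08 without the 4 libraries that stood apart. Canx was 411.5 and 337.4 CPM in deep controls and 336.1 to 362.5 CPM in deep scKO, with overlap.

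Hsp90b1 encodes the ER member of the Hsp90 family. It was 109.9 and 119.3 CPM in deep controls and 100.9, 98.8 and 105.7 CPM in deep scKO, a log2 fold change of -0.19 (SE 0.09, adjusted p by edgeR = 0.186) with groups that did not overlap. In shallow libraries it ranged from 103.4 to 258.8 CPM (median 118.2) in controls and from 46.9 to 196.5 CPM (median 114.7) in scKO, with broad overlap. An antisense transcribed pseudogene, 1810014B01Rik, shares 415 exonic bases with it, and the sources used here do not say whether counting used strand. Hyou1, an Hsp70-related co-chaperone of BiP, was 104.9 and 78.5 CPM in deep controls and 73.2, 81.8 and 99.7 CPM in deep scKO. Its levels overlapped in the shallow class as well, at 7.13 to 26.0 CPM (median 21.8) in controls and 5.99 to 26.2 CPM (median 15.2) in scKO. Over all 18 libraries the log2 fold change was -0.24 (SE 0.19, adjusted p by edgeR = 0.677).

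Edem1, Dnajb9 and Derl1 had the smallest p of the chaperone arm over all 18 libraries, and none passed the test. Edem1 takes misfolded glycoproteins towards degradation. It was 38.7 and 37.9 CPM in deep controls and 32.0, 35.0 and 32.7 CPM in deep scKO, without overlap, and 17.3 to 50.4 CPM (median 30.0) against 19.0 to 29.9 CPM (median 27.2) in the shallow class. Over all libraries the log2 fold change was -0.29 (SE 0.15, adjusted p by edgeR = 0.469). Dnajb9 encodes a co-chaperone of BiP that helps to keep IRE1 inactive. It was 24.9 and 34.6 CPM in deep controls and 35.0, 31.3 and 27.7 CPM in deep scKO, and 3.56 to 20.8 CPM (median 13.9) against 11.99 to 23.8 CPM (median 19.8) in the shallow class. Its shallow log2 fold change of 0.55 (SE 0.30, adjusted p by edgeR = 0.821) rests on 15 counts or fewer per library. Derl1, a component of the channel that takes misfolded proteins out of the ER, was 81.0 and 82.6 CPM in deep controls and 89.7, 86.4 and 85.1 CPM in deep scKO, and 34.7 to 74.9 CPM (median 60.2) against 53.0 to 69.2 CPM (median 65.9) in the shallow class. Its log2 fold change over all libraries was 0.18 (SE 0.13, adjusted p by edgeR = 0.611).

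With every deep library included, the other genes of the chaperone arm stayed short of the threshold. Herpud1, a regulator of ER-associated degradation whose promoter held a C/EBP-ATF element, was 77.3 and 75.1 CPM in deep controls and 105.5, 91.4 and 86.1 CPM in deep scKO, higher in each of the 3 (log2 fold change 0.29, SE 0.10, adjusted p by edgeR = 0.0785). In the shallow class its log2 fold change was -0.06 (SE 0.17). Sel1l, the partner of the ubiquitin ligase Syvn1, was 123.5 and 120.1 CPM in deep controls and 139, 129.1 and 131.6 CPM in deep scKO. The 2 genes that form this ligase did not move together in sign, since Syvn1 had a deep log2 fold change of -0.15 (SE 0.11) and Sel1l of 0.11 (SE 0.09). Manf, a secreted ER factor, was 363.5 and 267 CPM in deep controls and 274.5, 262.4 and 245.7 CPM in deep scKO, with scKO 6 above control 2. Its deep log2 fold change was -0.29 (SE 0.13, adjusted p by edgeR = 0.151), and its shallow levels overlapped at 132 to 371 CPM (median 178.7) in controls and 130.3 to 236.2 CPM (median 194.1) in scKO. Pdia6 was 628.4 and 462.5 CPM in deep controls and 517.6, 470.9 and 514.3 CPM in deep scKO, all 3 between the controls. This order is of compressed counts, since its deep counts of 3506 to 3835 lay near the ceiling. Its deep log2 fold change was -0.14 (SE 0.14), and -0.11 with counts corrected for tag collisions. Without control 2, against control 1 alone and without that correction, the values were -0.50 for Manf and -0.34 for Pdia6. The part of the ceiling in them was not tested. The deep value of Creld2, a secreted factor induced by ER stress, was -0.23 (SE 0.11, adjusted p by edgeR = 0.18). Those of Pdia3, Pdia6, Dnajc3, Sdf2l1 and Derl2 lay between -0.18 (Dnajc3) and 0.00 (Derl2). Manf shares 146 exonic bases with the opposite-strand gene Dcaf1, and Derl2 shares 231 with the opposite-strand gene Mis12.

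In the ATF4 arm, Ppp1r15a was higher and Shmt2 lower in the deep scKO libraries, while Atf4 itself did not differ beyond its spread. Atf4 mRNA was 441.1 and 362.5 CPM in deep controls and 390.4, 365.4 and 377.3 CPM in deep scKO, all 3 between the controls. Its deep counts reached 3006, so this order is of compressed counts, and control 1 and 2 held the smallest and largest deep totals. The deep log2 fold change was -0.10 (SE 0.12), and -0.09 with counts corrected for tag collisions. The shallow ranges were 628 to 932 CPM (median 741.5) in controls and 610 to 965.1 CPM (median 700.9) in scKO. Over all libraries the log2 fold change was -0.07 (SE 0.11, adjusted p by edgeR = 0.869), and the protein, which is set by translation, was not measured.

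Ppp1r15a encodes GADD34, the phosphatase subunit that removes the phosphate from eIF2 and so ends the block on translation. It was 57.9 and 54.8 CPM in deep controls and 76.6, 71.5 and 80.6 CPM in deep scKO, with every scKO library above both controls. The deep log2 fold change was 0.42 (SE 0.10, adjusted p by edgeR = 0.0147), and Ppp1r15a lost the call without control 2 (0.38) or scKO 9 (0.38). In shallow libraries it had at most 17 counts and ranged from 1.78 to 21.8 CPM (median 11.4) in controls and from 1.5 to 29.9 CPM (median 18.5) in scKO, with overlap and too few counts for the test. All 18 libraries gave 0.42 (SE 0.29, adjusted p by edgeR = 0.604), the same size as the deep value with a wider error.

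Shmt2 encodes the mitochondrial enzyme that splits serine to glycine and a one-carbon unit. It was 363.9 and 298.6 CPM in deep controls and 266.4, 216.9 and 243.8 CPM in deep scKO, with every scKO library below both controls. The log2 fold change was -0.46 (SE 0.12, adjusted p by edgeR = 0.0199), and -0.62 with counts corrected for tag collisions. Shmt2 lost the call when control 1 (-0.33), scKO 7 (-0.39) or scKO 9 (-0.47) was left out. In shallow libraries it ranged from 152.8 to 583.2 CPM (median 340.1) in controls and from 251.1 to 433.9 CPM (median 359.7) in scKO, with a log2 fold change of -0.04 (SE 0.26, adjusted p by edgeR = 0.985). The shallow scKO libraries all lay within the range of the controls. Without the 4 libraries that stood apart the shallow value was -0.36 (SE 0.17, adjusted p by edgeR = 0.579), and over the remaining 14 libraries Shmt2 was at -0.39 (SE 0.12, adjusted p by edgeR = 0.0482).

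Of the enzyme genes of serine synthesis upstream of Shmt2, Psat1 and Psph did not pass the test, and Phgdh was not tested. Psph, from a further list read below, had a shallow log2 fold change of 0.55 (SE 0.25, adjusted p by edgeR = 0.798). In the deep class its value was -0.25 (SE 0.13, adjusted p by edgeR = 0.241). Psat1 was 592 and 447.1 CPM in deep controls and 532.1, 453.5 and 504.9 CPM in deep scKO, all 3 between the controls, with counts near the ceiling. It had a deep log2 fold change of -0.08, and of 0.12 with counts corrected for tag collisions, and neither passed the test. In shallow libraries, where counts were at most 3066, it ranged from 2286 to 3680 CPM (median 3038) in controls and from 2536 to 3993 CPM (median 3367) in scKO, a log2 fold change of 0.16 (SE 0.15, adjusted p by edgeR = 0.853). Phgdh, the gene for the first enzyme of serine synthesis, was nearly absent from the table. It had 0 or 1 count in each library and 7 in all, under the floor in every library, and 13 processed pseudogenes resemble its transcript over at least 200 bases at 95% identity or more. Counting can split or drop reads shared with such copies, so its level is uncertain and no fold change is given. Asns, which makes asparagine, was 79.8 and 54.0 CPM in deep controls and 80.3, 52.9 and 59.2 CPM in deep scKO. Its shallow ranges of 32.1 to 71.1 CPM (median 51.0) in controls and 30.2 to 78.6 CPM (median 53.3) in scKO overlapped, and its log2 fold change over all libraries was -0.03 (SE 0.17, adjusted p by edgeR = 0.978).

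The genes of redox balance and cell death were mixed. Chac1, which degrades glutathione and is a sensitive ATF4 target, was 140.2 and 144.6 CPM in deep controls and 177.8, 164.6 and 164.8 CPM in deep scKO, above both controls in each. Its deep log2 fold change of 0.23 (SE 0.09) did not pass the test (adjusted p by edgeR = 0.0954). The shallow levels were 80.2 to 176.5 CPM (median 120.7) in controls and 82.4 to 184.8 CPM (median 144.7) in scKO, with a log2 fold change of 0.17 (SE 0.21, adjusted p by edgeR = 0.891). Ddit3 encodes CHOP, which promotes cell death under lasting stress. It was low, at 5.74 and 6.39 CPM in deep controls and 5.88, 5.43 and 5.23 CPM in deep scKO, from 32 to 53 counts, with a log2 fold change of -0.16 (SE 0.23, adjusted p by edgeR = 0.695). Trib3, a pseudokinase gene induced by ATF4 and CHOP, was 2.15 and 3.26 CPM in deep controls and 2.87, 3.79 and 1.84 CPM in deep scKO, with a log2 fold change of 0.03 (SE 0.37). Shallow Ddit3 ranged from 0 to 14.4 CPM (median 7.13) in controls and from 1.76 to 10.5 CPM (median 4.94) in scKO, and shallow Trib3 from 0 to 6.95 CPM (median 3.25) and from 0 to 5.61 CPM (median 3.04). Neither had enough counts there for the test.

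Ddit4 was the gene for which the depth classes differed most. It encodes REDD1, an inhibitor of the growth kinase complex mTORC1 that is induced by ATF4, glucocorticoids and low oxygen. In shallow controls it ranged from 5.35 to 22.8 CPM (median 14.4) and in shallow scKO from 21.0 to 47.5 CPM (median 30.2), so the groups overlapped only between control 6 and scKO 1 and 4. These levels came from 3 to 14 counts per control library, with control 7 at the floor of 3, and from 14 to 34 per scKO library. The log2 fold change was 1.07 (SE 0.27), with an unadjusted p of 0.00077 and an edgeR adjusted p of 0.397. In deep libraries it was 36.0 and 37.2 CPM in controls and 34.5, 26.3 and 28.8 CPM in scKO, lower in each of the 3, with a log2 fold change of -0.31 (SE 0.14, adjusted p by edgeR = 0.142). The difference between classes was -1.37 on the log2 scale (SE 0.34), with an unadjusted p of 0.00046 and an edgeR adjusted p of 0.389, beside 6.17% of all genes with an unadjusted p under 0.05 in that test and no gene past the threshold. Without the 4 libraries that stood apart the shallow value was 0.97 and the difference -1.28. Neither the shallow value nor the difference therefore passed the test over all genes. Sesn2, another inhibitor of mTORC1 signalling, had the same signs, with log2 fold changes of 0.25 (SE 0.34) in the shallow class and -0.27 (SE 0.16) in the deep class, and neither passed the test.

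**Figure D3:**
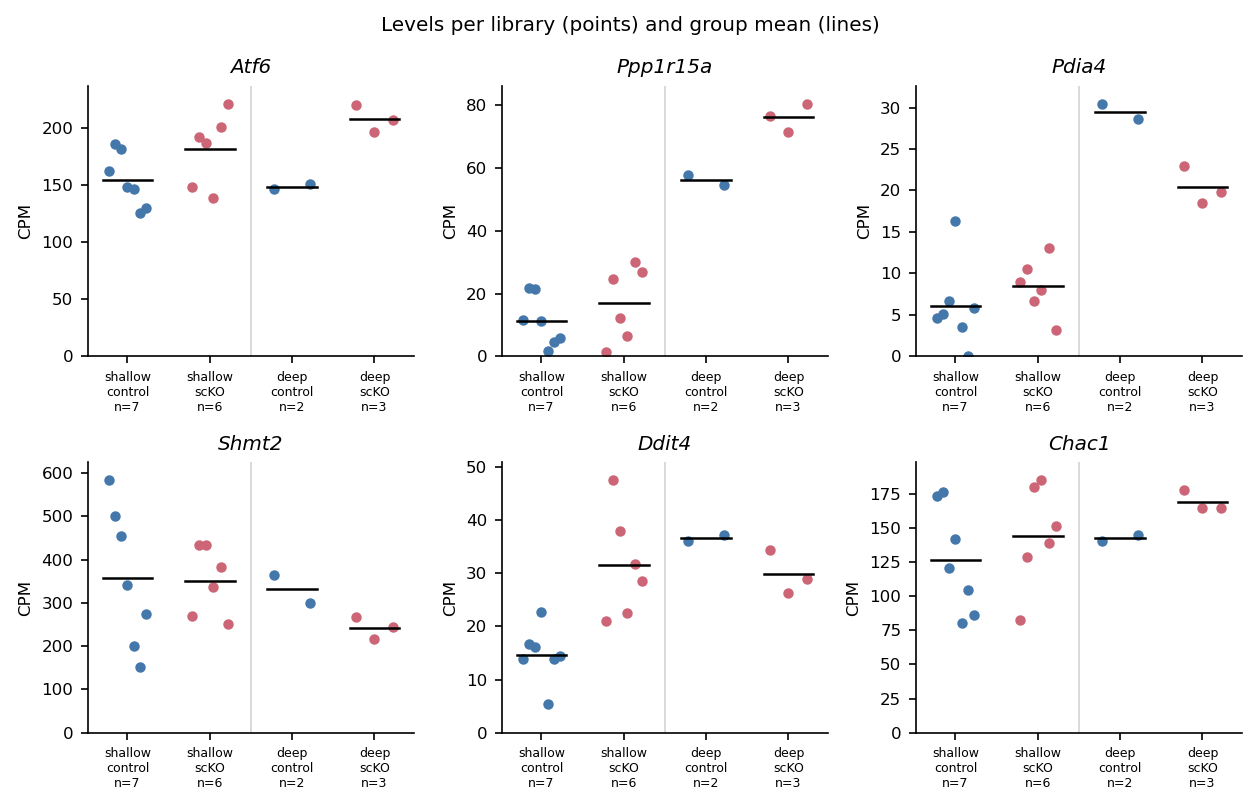
CPM of 6 genes in each library (points) with the group mean (lines), by depth class and group. In the deep class the 3 scKO libraries lie above both controls for Atf6 (196.2 to 219.5 against 145.9 and 151 CPM), Ppp1r15a and Chac1, and below both for Pdia4, Shmt2 and Ddit4, while in the shallow class the groups overlap for each of the 6.

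Across the deep class, 14 of 33 genes had scKO libraries that did not overlap the controls, 6 of them higher (Atf6, Herpud1, Sel1l, Derl1, Chac1 and Ppp1r15a) and 8 lower (Eif2ak3, Hsp90b1, Calr, Pdia4, Edem1, Ddit4, Sesn2 and Shmt2). Over all genes tested 45.2% had such groups, so this count is near the background. Both directions occur in each arm. Of 33 genes, 24 had a negative deep fold change (72.7%), beside 50.2% of all genes. The 2 deep controls differed from each other for many of these genes, with control 1 above control 2 for Hspa5 (614.1 against 463.8 CPM) and Manf (363.5 against 267 CPM), for example. The median of the chaperone arm was -0.06 without control 1 and -0.24 without control 2. That of the ATF4 arm was -0.09 with every deep library and -0.26 without control 2. Each fit with a control left out rests on 1 deep control. Without control 2 it was control 1, whose total of 4346150 counts was the smallest of the deep class. Tag collisions were not corrected in these fits, and the part of the ceiling in their values was not tested.

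In CPM not corrected for tag collisions, the chaperone arm and the ATF4 arm showed no separation in the deep class. The level of an arm in a library was taken as the mean over its genes of the log2 level minus the control mean of the same class, over the 17 chaperone and 8 ATF4 genes tested in all 18 libraries. In deep libraries the chaperone arm was at 0.04 and -0.04 in controls and at -0.02, -0.11 and -0.10 in scKO 6, 7 and 9. The ATF4 arm was at 0.10 and -0.10 in controls and at 0.08, -0.18 and -0.10 in scKO. The chaperone arm minus the ATF4 arm was therefore -0.01 on average in deep scKO (SD 0.08, n = 3) against a spread of 0.09 (SD, n = 2) in controls. In shallow libraries the chaperone arm was at 0.00 on average in scKO (SD 0.11, n = 6; controls SD 0.23, n = 7), and the ATF4 arm at 0.25 (SD 0.24; controls SD 0.30). On the same scale, without the 4 libraries that stood apart, the ATF4 arm averaged 0.21 in 4 controls and 0.32 in 5 scKO libraries, a difference of 0.12, and the chaperone arm 0.15 and 0.03, a difference of -0.12. With all 13 shallow libraries the chaperone arm minus the ATF4 arm ranged from -0.55 to 0.00 in scKO with a median of -0.23, and from -0.32 to 0.22 in controls with a median of 0.07, and the ranges overlap. By fold change, 5 of 8 tested ATF4 arm genes were positive over all libraries with a median of 0.09, against 5 of 17 in the chaperone arm with a median of -0.06, beside a median of -0.01 over all genes. In the shallow class 4 of 7 ATF4 arm genes were positive with a median of 0.16, and in the deep class 3 of 10 with a median of -0.09. Without the 4 libraries that stood apart, the shallow medians were 0.03 for the ATF4 arm and -0.13 for the chaperone arm, and without control 6 the shallow chaperone median was 0.01. Over all libraries the ATF4 median was 0.04 without the 4 and -0.05 after thinning to equal totals. These medians are given without a test.

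**Figure D4:**
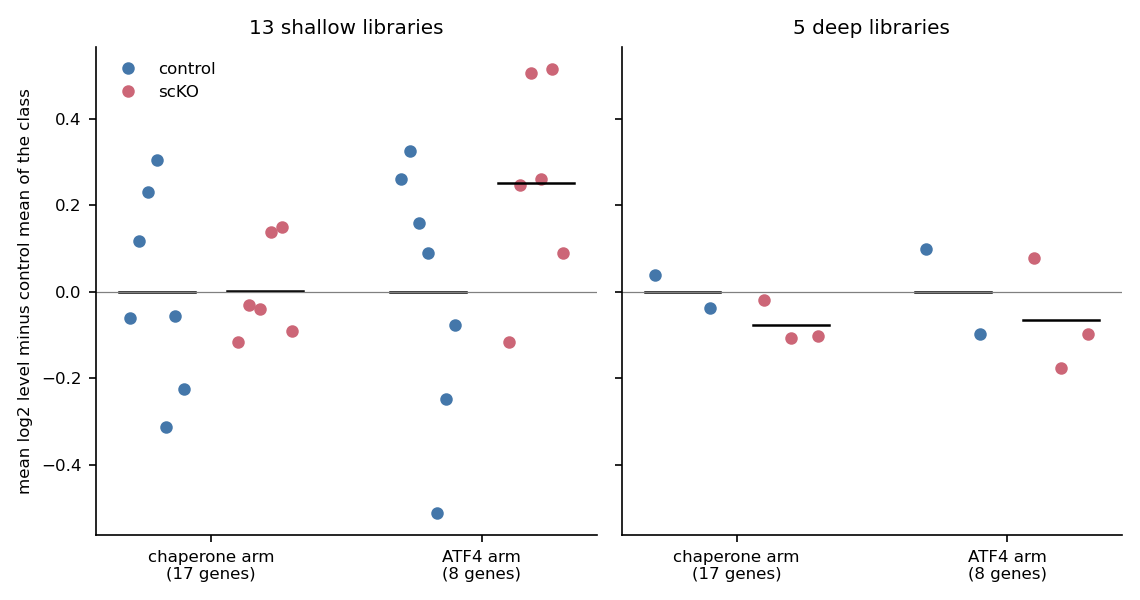
Level of the chaperone arm (17 genes) and of the ATF4 arm (8 genes) in each library. Levels are the mean log2 level minus the control mean of the depth class, without correction for tag collisions. Points are libraries and lines are group means. Shallow scKO libraries average 0.25 for the ATF4 arm and 0.00 for the chaperone arm (scKO minus control is 0.12 and -0.12 with the 4 libraries that stood apart left out), and the scKO points overlap the control points for both arms in both panels.

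The 4 shallow libraries that stood apart differed from the other 9 in several of these genes, and since 3 of the 4 are controls these genes enter the shallow comparison. Pdia6 was 3764, 4199 and 4504 CPM in control 7, 8 and 9 and 3767 CPM in scKO 1, against 1465 to 2032 CPM in the other 9. The shallow log2 fold change of Pdia6 was -0.42 (SE 0.30) with all 13 libraries and 0.03 (SE 0.12) without the 4. Derl2 (83.6 to 100.4 against 43.0 to 72.2 CPM) and Atf4 (840.7 to 965.1 against 610 to 798.6 CPM) were also above the other 9 in each of the 4. Chac1 (80.2 to 104.2 against 120.7 to 184.8 CPM), Psat1 (2286 to 2550 against 3038 to 3993 CPM), Calr (245 to 329.7 against 341.7 to 457.7 CPM) and Dnajc3 (46.1 to 89.1 against 89.8 to 131.7 CPM) were below the other 9 in each. Atf4 mRNA was thus high in the libraries in which its targets Chac1 and Psat1 were low, but the rest of the arm was mixed. Asns, Ddit4, Sesn2 and Shmt2 overlapped between the 4 libraries and the other 9. Their log2 ratios of means, the 4 over the other 9, were -0.10, -0.95, 0.69 and -0.88. Of 26 genes tested, 3 lay above (11.5%) and 4 below (15.4%), beside 10.5% above and 7.85% below among all 6906 genes tested in that class. What sets these 4 libraries apart is not given by the labels.

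**Figure D5:**
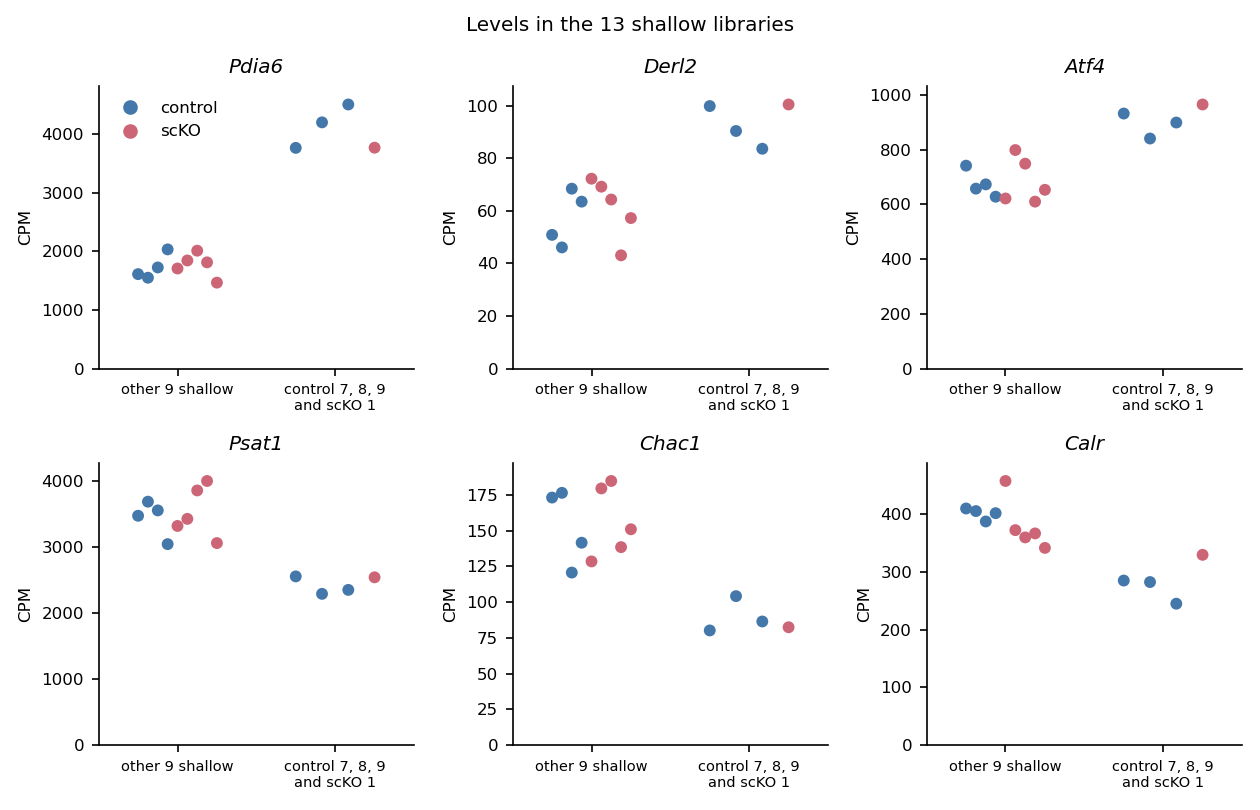
CPM of 6 genes in the 13 shallow libraries, with control 7, 8 and 9 and scKO 1 drawn beside the other 9 and coloured by group. Pdia6 reaches 3764 to 4504 CPM in the 4 libraries and at most 2032 CPM elsewhere, Derl2 and Atf4 are also higher in the 4, and Psat1, Chac1 and Calr are lower.

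Other genes of the same pathways were read from 6 further lists, and no gene of any list passed the edgeR test over all 18 libraries or in the shallow class. At most 4 genes of a list had an edgeR unadjusted p under 0.05, which were 4 of 25 further ATF4 targets over all libraries and 4 of 24 in the shallow class. Among all genes these shares were 11.9% and 6.13%. In the deep class the list of ER translocation and glycosylation had 18 of 25 tested genes lower, with a median of -0.10, beside 50.2% lower over all genes. Of the 25, 1 passed the test, the translocation channel subunit Sec61a1. Sec61a1 was 181.3 and 188.6 CPM in controls and 150 to 151.7 CPM in scKO, a log2 fold change of -0.31 (adjusted p by edgeR = 0.0268). Among 29 further ER folding and degradation factors 4 rose and 1 fell in the deep class. Those that rose were the ER calcium regulator Wfs1 (log2 fold change 0.49, adjusted p by edgeR = 0.0063), the mannosidase-like Edem3 (0.49, adjusted p by edgeR = 0.0051), the BiP exchange factor Sil1 (0.41, adjusted p by edgeR = 0.04997) and the ubiquitin-conjugating enzyme Ube2g2 (0.59, adjusted p by edgeR = 0.0246). The thioredoxin-domain gene Txndc11 fell (-0.61, adjusted p by edgeR = 0.0235). These shares, 1 of 25 and 5 of 29, stand beside 14.3% of all genes called in the deep class.

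Further ATF4 targets and genes of amino acid supply had 2 genes higher and 2 lower among 31 tested in the deep class, with a median of -0.05, beside 7.31% of all genes called higher and 7.03% called lower. The stress hormone gene Fgf21 was 146 and 150.2 CPM in deep controls and 249.2 to 360.7 CPM in deep scKO, a log2 fold change of 0.94 (adjusted p by edgeR = 0.0039). In shallow libraries it ranged from 5.35 to 60.1 CPM (median 17.9) in controls and from 24.0 to 140.5 CPM (median 47.9) in scKO, with a log2 fold change of 1.07 (adjusted p by edgeR = 0.798), so its direction was the same in both classes. Vldlr, a lipoprotein receptor gene, rose in the deep class (0.96, adjusted p by edgeR = 0.0014) and was at -0.01 in the shallow class. The glutamine transporter Slc1a5 (-0.63, adjusted p by edgeR = 0.0068) and the mitochondrial folate enzyme Mthfd1l (-0.62, adjusted p by edgeR = 0.0052) fell in the deep class. Of other mitochondrial folate enzymes in the list, Mthfd2 was at -0.05 and Aldh1l2 at 0.26 in the deep class, and neither passed the test.

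The aminoacyl-tRNA synthetase genes load tRNAs, and many of them are ATF4 targets. In the deep class 13 of 20 were lower, with a median of -0.03, beside 50.2% lower over all genes. Vars (-0.33), Kars (-0.31) and Hars (-0.29) fell at edgeR adjusted p-values of 0.0427, 0.0386 and 0.049. These 3 of 20 stand beside 14.3% of all genes called in the deep class and 7.03% called lower. A list of 15 genes held eIF2 kinases, eIF2, its exchange factor eIF2B and related factors, among them Dnajc3, which is also counted in the chaperone arm. None of the 15 passed the edgeR test in the deep class (1 had an unadjusted p under 0.05), and their median was 0.00. Among ER membrane stress transcription factors and their relatives 4 of 10 passed it. Creb3l1, an ATF6-related factor of secretory cells, fell from 108.4 and 118.5 CPM to 62.8 to 68.3 CPM, by 0.80 on the log2 scale (adjusted p by edgeR = 0.0003), and had a shallow log2 fold change of -0.20 (adjusted p by edgeR = 0.899). Creb3 rose (0.40, adjusted p by edgeR = 0.0159), as did Nfe2l1 (0.51, adjusted p by edgeR = 0.0356), which raises proteasome genes, and Tfeb (1.27, adjusted p by edgeR = 0.0298), which raises lysosome genes and had at most 32 counts. The count of 4 in 10 stands beside the 14.3% of all genes called in that class.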

How the data were processed

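The deposited table holds the authors' UMI counts (unique molecular identifiers) for each gene, with 1 column for each of the 18 libraries. HISAT2, HTSeq and the build Rnor_6.0 are named in the submitters' processing notes, without versions or roles, although features carry mouse Ensembl identifiers. The UMI length, the annotation release and whether strand was used are not given in the sources used here. Of 50689 features, 313 had no gene symbol and held 0.041% of counts.

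Genes were filtered with filterByExpr, scaled by TMM on full totals and tested with the robust quasi-likelihood test of edgeR 4.0.16 in R 4.3.3, with Benjamini-Hochberg adjustment over all genes tested and a threshold of 0.05. The depth class (total over or under 2000000 counts) was a covariate over all 18 libraries, each class was also fitted alone, and an interaction term compared the classes. Arm levels used log2 of CPM plus 1. Counts c were corrected for tag collisions as -K ln(1 - c/K), with K = 4096, leaving out 8 features at that value. DESeq2 1.42.0, limma-voom (limma 3.58.1), other scalings and filters, thinning to the smallest total and left-out libraries were tried as alternatives. With a deep control left out, the lone control is assumed to vary like the scKO libraries.

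On simulated counts the comparison of all 18 libraries recovered 90 of 95 genes set to a 2-fold change and 89 of 89 set to a 4-fold change, over 7450 genes, with 8 calls at unchanged genes. The shallow comparison recovered 69 of 93 and 89 of 90 over 7012 genes, with 11 such calls. The deep one recovered 25 of 100 and 92 of 100 over 7662 genes, with 5 such calls, while the real deep comparison tested 13136 genes. The simulated spread of each gene was estimated over all 18 libraries, most of them shallow, and not within the deep class. The deep recovery is therefore not a measure of the power of the real deep comparison. No difference between classes was simulated, and the interaction term called none of the changed genes, so its power was not measured.

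The genes, their arms, the pathway and marker lists and the models were chosen with earlier results of these data known. Levels by library are given for the sensors, for Hspa5, Hsp90b1, Calr and Hyou1, for Atf4, Ddit3, Trib3, Asns, Chac1, Psat1, Phgdh and Shmt2, for genes called with every library of a comparison included, and for the 3 genes of each arm with the smallest p over all libraries. Of each pathway list, called genes and up to 4 with the smallest p were eligible. Other levels printed, such as those of Canx, Herpud1, Sel1l, Manf and Pdia6 and of the genes in which 4 libraries stood apart, were chosen after their values were seen, as was the split of the genes at 2048 counts. Gene positions and overlaps are from GENCODE M21 (GRCm38), pseudogene copies from blastn 2.17.0 and promoters from RefSeq. In shallow libraries, low counts limit precision by counting error.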

Additional observations from a re-analysis of the deposited data

Results flagged for a closer look

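Among the 26 genes tested in the shallow class, the highest or lowest library of each shallow group was compared with its neighbour by Dixon's criterion at the 95% level, and 6 of 52 groups held a library far from the others. Chance flags about 1 in 20 groups. Hsp90b1 in control 5 was 258.8 CPM, the highest of 7 controls. Calr in scKO 2 was 457.7 CPM, the highest of 6 scKO libraries. Pdia3 in control 8 was 18.53 CPM, the lowest of 7 controls. Pdia6 in scKO 1 was 3767 CPM, the highest of 6 scKO libraries, and scKO 1 is one of the 4 libraries that stood apart. Manf in control 6 was 371 CPM, the highest of 7 controls. Derl1 in scKO 4 was 53.02 CPM, the lowest of 6 scKO libraries.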

How the results depend on the processing

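The count of genes called over all 18 libraries, 52, depended on the model. It was 1 with the group alone, 359 with no filter, 13 with a stricter filter, 390 with DESeq2, 100 with limma-voom, 5 after thinning and 619 without the 4 libraries that stood apart, and it ranged from 11 to 215 when each library was left out in turn. ER stress and ATF4 genes called there stayed at 0, except 1 with DESeq2 (Atf6) and 1 without the 4 libraries (Shmt2). In the shallow class 3 genes became 6 with DESeq2, 0 without the 4 libraries and 1 to 5 with each library left out. In the deep class leaving out each library in turn gave 996 to 1813 genes, 1 to 7 of the ER stress and ATF4 genes, and medians of -0.24 to -0.058 for the chaperone arm and -0.26 to -0.089 for the ATF4 arm. The median of the chaperone arm for the difference between classes, -0.11, was 0.020 without the 4 libraries. Signs turned with the group alone for Xbp1 (0.028), Eif2ak3 (0.12), Hyou1 (0.10) and Psat1 (-0.020), and without the 4 libraries for Hspa5 (-0.14 over all libraries, -0.15 in the shallow class) and Calr (-0.084, shallow). In the deep class they turned for Psat1 with tag collisions corrected (0.12), and in ranges over the left-out libraries for Hspa5 (-0.32 to 0.076), Hyou1 (-0.32 to 0.088), Atf4 (-0.24 to 0.035), Asns (-0.33 to 0.22), Psat1 (-0.27 to 0.13), Dnajb9 (-0.17 to 0.31), Xbp1 (-0.36 to 0.037) and Ern1 (-0.18 to 0.20), the last 2 turning without control 2 and the others without control 1. Of 940 values of named genes under alternatives, 17 turned, 9 lost the call and 5 gained it. A turn is a change of sign by over 1 SE, or of a called value. Of the other 909, 48 also changed sign, uncalled and by at most 1 SE, among them Trib3 in the deep class (to -0.24), Asns (to 0.10) and Shmt2 (to 0.12) in the shallow class. The ATF4 median over all libraries was -0.053 after thinning, and the shallow chaperone median 0.0055 without control 6. Causes were not tested. In the replicate block fit 14 genes and 0 of the ER stress and ATF4 genes were called, and Eif2ak3 turned to 0.12. Same-numbered libraries deviated together in 5 of 9 pairs (correlation over 0.1), and 5 of 18 libraries correlated best with their own number, so the numbers are not taken as pairs.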
